A study of Mus musculus with 7 samples.

Results

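H3K4me1 fragments of mouse zygotes were ranked along the autosomes by their length, and the 1 Mb bins at both ends of that ranking are described here. Fragments of 150 to 250 bp, about the length that 1 nucleosome gives, were counted in each bin and divided by the fragments of 300 to 500 bp, about the length that a pair of neighbouring nucleosomes gives. Of 2413 autosomal bins with a fragment, 2388 held the minimum of 200 fragments and were ranked. The 238 bins with the highest ratio, 1 in 10, are called high-ratio bins and the 238 with the lowest ratio are called low-ratio bins, 476 in all. The bins were chosen by these measured ratios, so their ratios are given as a description with no test. The low-ratio bins held fewer genes and a lower level of the mark than the ranked bins as a whole. They also held fewer fragments, a median of 372.5 per bin against 545 in all ranked bins. The differences in genes and level between the sets depended on how bins were ranked. In libraries that did not choose the bins the difference in ratio was small.

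The study read a histone mark, by CUT&Tag, together with the full-length transcriptome of the same single mouse zygotes. Of its 7 samples, the pair of H3K4me1 samples is used here, each made from the zygotes of 1 mouse and deposited together in 1 fragment table. The labels of these samples give their treatment as none and state no strain, age, hormone or time of collection. The labels of the H3K27me3 zygotes of the same series, not analysed here, name females of the B6D2F1/J cross, 6 weeks old, with C57BL6/J fathers, and hormone doses of 5 IU each, of pregnant mare serum gonadotropin first and of human chorionic gonadotropin after 46 to 48 h. Library names carry a 4 or a 5, and no label ties either number to a mouse, so that the table counts as 1 pooled sample and no p-value is given. The pool held 1404305 fragments from 14 libraries, 3 named 4 and 11 named 5, at 7106 to 197312 fragments each (median 96240). Marker genes were read only as H3K4me1 levels, that is fragments per bp over the autosomal mean of 5.62 fragments per 10 kb. The median level was 1.33 over 10 oocyte markers, 1.16 over 10 cumulus and granulosa cell markers, 1.32 over 6 sperm markers and 1.22 over 5 blood markers. None of these genes was at 0, so that the levels did not set the zygote apart from other cells.

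H3K4me1 is a methylation of histone H3 known from enhancers and the flanks of active promoters. In CUT&Tag an antibody brings the Tn5 transposase to the mark, and each fragment lies between 2 cuts. Cuts on either side of a single nucleosome give short fragments, and cuts that span neighbouring nucleosomes give longer ones, so that the fragment lengths carry the spacing of cuts. They depend also on how far the transposase and the amplification went in each library.

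The 4 promoters below show the sequence at both ends of the ranking. They belong to the genes with the most fragments among those with a promoter entry, in the bin with the highest ratio and in the lowest bin in which genes could be named. Tespa1, with more fragments than Neurod4 in the first of these bins, had no entry. They are RefSeq sequences of GRCm38.p6, the assembly of mm10, from 250 bases before to 50 after the start of the gene, with each CG in capitals.
Neurod4: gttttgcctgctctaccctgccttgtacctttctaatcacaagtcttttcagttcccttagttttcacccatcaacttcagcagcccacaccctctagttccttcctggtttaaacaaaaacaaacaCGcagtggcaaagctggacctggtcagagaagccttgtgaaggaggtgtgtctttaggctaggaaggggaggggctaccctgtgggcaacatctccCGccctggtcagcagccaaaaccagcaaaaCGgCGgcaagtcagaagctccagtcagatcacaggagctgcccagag
Vmn2r85: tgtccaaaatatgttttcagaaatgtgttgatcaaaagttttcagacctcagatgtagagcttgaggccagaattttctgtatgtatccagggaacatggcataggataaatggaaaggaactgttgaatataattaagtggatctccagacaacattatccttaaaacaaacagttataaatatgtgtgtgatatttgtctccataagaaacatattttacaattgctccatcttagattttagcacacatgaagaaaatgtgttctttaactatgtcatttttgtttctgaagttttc
Prl7d1: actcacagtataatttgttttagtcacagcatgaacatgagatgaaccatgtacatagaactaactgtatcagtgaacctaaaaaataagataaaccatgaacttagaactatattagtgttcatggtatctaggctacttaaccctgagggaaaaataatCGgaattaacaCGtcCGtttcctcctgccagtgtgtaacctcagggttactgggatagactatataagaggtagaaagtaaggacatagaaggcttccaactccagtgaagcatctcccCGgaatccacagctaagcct
Prl8a8: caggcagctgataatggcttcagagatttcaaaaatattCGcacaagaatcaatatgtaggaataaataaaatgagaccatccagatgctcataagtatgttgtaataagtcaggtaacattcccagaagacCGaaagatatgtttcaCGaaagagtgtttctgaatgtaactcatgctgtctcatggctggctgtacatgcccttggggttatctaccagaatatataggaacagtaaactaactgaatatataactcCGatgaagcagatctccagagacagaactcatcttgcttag
Neurod4, a transcription factor of neuronal differentiation, has its printed promoter at chr10:130280205-130280504 on the minus strand, with 52.3% GC and 4 CG. Across its promoter entries the gene had 53.5% GC and 5.5 CG on average. Vmn2r85, a pheromone receptor of the vomeronasal organ, has its promoter at chr10:130429563-130429862 on the minus strand, with 32% GC and 0 CG. Prl7d1 (chr13:27716688-27716987) and Prl8a8 (chr13:27513168-27513467), both on the minus strand, encode hormones of the placental prolactin family, with 39.7% and 38.3% GC and 4 CG each. All 4 printed promoters held fewer CG than the median promoter of the ranked bins, which has 14.

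The ratio over all ranked bins was 0.685, that is 40.6% of the fragments of both windows were of 150 to 250 bp. Single bins ranged from 0.333 to 1.03 with a median of 0.680. In the high-ratio bins the median was 0.820 (0.786 to 1.03), from a median of 167 fragments of 150 to 250 bp and 198.5 of 300 to 500 bp per bin. In the low-ratio bins the median was 0.545 (0.333 to 0.577), from 90.5 and 169.5 fragments. Summed over bins, the high-ratio bins had a ratio of 0.827 (exact 95% interval 0.816 to 0.838) and the low-ratio bins 0.540 (0.531 to 0.548). All intervals are Clopper-Pearson for ratios and shares and Poisson for levels. They describe counting error alone, because the table records no molecular identifiers and its fragments may not stand for separate molecules.

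**Figure D1:**
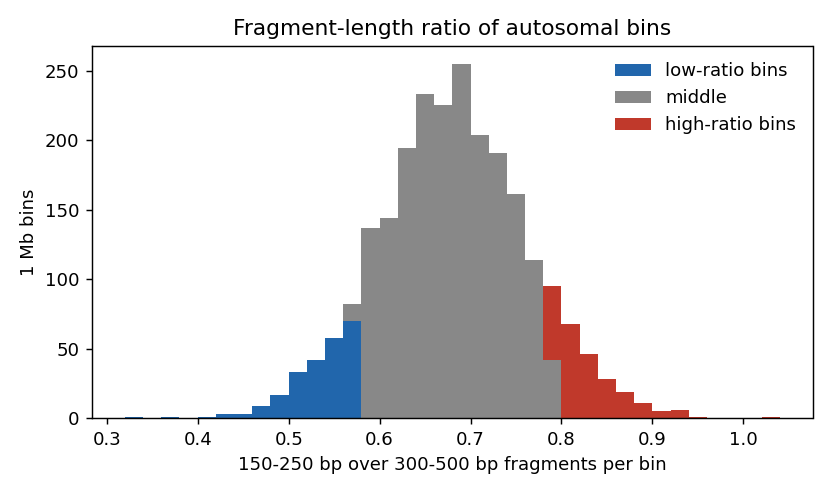
Number of 1 Mb autosomal bins (vertical axis) by ratio of 150 to 250 bp over 300 to 500 bp fragments (horizontal axis), with the low-ratio bins in blue, the high-ratio bins in red and the middle bins in grey. The bins form 1 hump around the median of 0.680, and the sets are its ends and no separate group.

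No gap marked either threshold. Just inside the high-ratio bins lay chr10:121000001-122000000 at 0.787 and chr6:45000001-46000000 at 0.786, and just outside them chr11:92000001-93000000 and chr15:50000001-51000000, both at 0.786. Just inside the low-ratio bins lay chr8:107000001-108000000 and chr16:66000001-67000000, both at 0.577, and just outside them chr2:62000001-63000000 and chr3:139000001-140000000, both at 0.578. Most members could not be told from the autosomal ratio at this depth. The interval lay above the autosomal value in 69 high-ratio bins (29.0%), which is 2.89% of all ranked bins, and below it in 83 low-ratio bins (34.9%), which is 3.48% of all ranked bins. These are the same counts that chose the bins, and no bin outside the sets had such an interval. Through counting error alone, such intervals leave out a shared value in some bins on each side. The shares of 2.89% and 3.48% of all ranked bins were not far above the rate that counting error alone gives. The 29.0% and 34.9% therefore cannot be read as shares of bins that truly differ. Over all ranked bins the squared deviations were 1.20 times what binomial counting alone gives. They were also 1.20 times when each bin's expected ratio was computed from the libraries that its fragments came from.

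The members had few fragments per library, and single libraries disagreed within each bin. Over the 13 libraries of 20000 or more fragments, a high-ratio bin lay above the library's own ratio in a median of 9 libraries (5 to 12). A low-ratio bin lay below it in a median of 9 (5 to 12). No member lay on 1 side in all 13 libraries.

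The bin with the highest ratio was the end of chromosome 10, chr10:130000001-130595310, with 91 fragments of 150 to 250 bp over 88 of 300 to 500 bp (1.03, 0.763 to 1.40). It holds 14 protein-coding genes, among them 8 olfactory receptors, 4 vomeronasal receptors, Neurod4 and Tespa1, which acts in T cell development. Of its 633 fragments, 385 were shorter than 150 bp, so that both windows of the ratio held a minority of its fragments. Its ratio by library ran from 0.2 over a median of 1 to 5 and lay above the library's own in 10 of 13. The level over Neurod4 was 1.46 (0.796 to 2.44) and that over Tespa1 was 0.780 (0.476 to 1.20), both with an interval that includes 1.

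The next 4 bins had usual numbers of fragments. The bin chr15:10000001-11000000, with Rai14, Ttc23l and the prolactin receptor gene Prlr, had 167 over 177 fragments (0.944, 0.759 to 1.17) and lay above the library's own ratio in 10 of 13 libraries, from 0.222 over a median of 0.875 to 1.63. Levels of its genes were 1.03 (0.829 to 1.27) at Rai14 and 0.704 (0.549 to 0.889) at Prlr. The bin chr6:14000001-15000000, with Ppp1r3a, a glycogen-targeting subunit of a muscle phosphatase, had 128 over 137 (0.934). The bin chr7:41000001-42000000, with Zfp788 and the vomeronasal receptors Vmn2r57 and Vmn2r58, had 163 over 175 (0.931), and it was above the library's own ratio in only 8 of 13 libraries. The bin chr9:95000001-96000000, with Pls1, an actin-bundling plastin, Pcolce2 and Atr, the kinase of the replication checkpoint, had 186 over 200 (0.930) and was above in 11 of 13. Its level at Atr was 0.637 (0.446 to 0.881). None of the genes named in these 5 bins had a level with an interval above 1.

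The lowest ratios rested on few fragments. The end of chromosome 12, chr12:120000001-120029071, had 2 over 6 (0.333), with 511 of its 522 fragments under 150 bp, and the end of chromosome 16, chr16:98000001-98107710, had 7 over 19 (0.368), with 319 of 353 under 150 bp. In these 2 bins fragments of the other lengths stood at 100 and 17.2 times the autosomal mean. Counts this small leave wide intervals, and both bins reached the minimum of 200 through fragments that the ratio does not count.

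The other 3 of the 5 lowest bins had more fragments in the windows, though fewer than the lower quartiles of 109 and 166.75 over all ranked bins, and held no protein-coding gene or a gene cluster. The bins chr1:49000001-50000000 (56 over 135, 0.415) and chr6:19000001-20000000 (60 over 142, 0.423) hold 0 protein-coding genes. The bin chr13:27000001-28000000 (53 over 126, 0.421) holds 21 genes of the prolactin family, most of them hormones of the placenta. In that bin 12 of 13 libraries lay below their own ratio, from 0 over a median of 0.375 to 0.778. Its 3 named genes had 4 fragments each, with levels of 0.559 (0.152 to 1.43) at Prl7d1, 0.633 (0.172 to 1.62) at Prl8a8 and 0.613 (0.167 to 1.57) at Prl8a9. Fragments in families of near-identical copies are uncertain, since the mapping filter is not given in the sources used here.

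When bins were chosen without a library and then read in it, the sets lay closer together than in the pool. In the 13 libraries of 20000 or more fragments, the high-ratio bins had the higher ratio in 10 and the lower in 3 (4-2, 5-6 and 5-9). The ratio of high to low ran from 0.981 in library 5-9 over a median of 1.06 to 1.12 in library 4-5. Intervals of the sets did not overlap in 1 library, 4-5, with 0.599 (0.569 to 0.631) in the high-ratio and 0.533 (0.502 to 0.565) in the low-ratio bins. The low-ratio bins lay below the middle bins in 12 of 13 libraries (0.891 to 1.02 times, median 0.968), and the high-ratio bins lay above them in 9 of 13 (0.950 to 1.05 times, median 1.02). Libraries themselves differed more, from 0.508 in 5-9 to 0.892 in 5-6. Leaving 1 library out kept 176 to 229 of the high-ratio and 176 to 232 of the low-ratio bins.

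**Figure D2:**
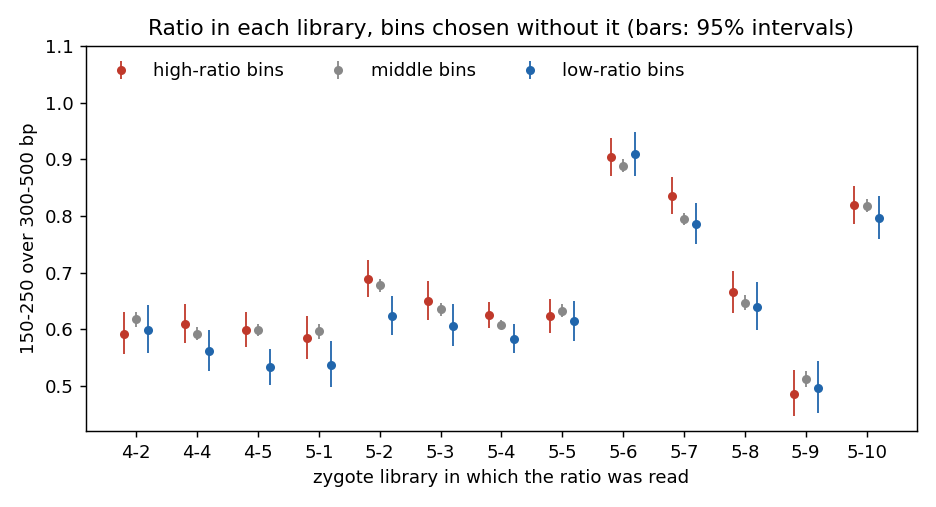
Ratio of 150 to 250 bp over 300 to 500 bp fragments (vertical axis) in each of 13 libraries (horizontal axis), for bins chosen without that library, with the middle bins in grey. Points are summed ratios and bars are exact 95% intervals; the distance between libraries, 0.508 to 0.892, exceeds that between the sets in any library.

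Bins chosen in libraries named 5 and read in those named 4 gave 0.602 (0.582 to 0.622) in the high-ratio bins, 0.602 (0.595 to 0.609) in the middle and 0.557 (0.537 to 0.578) in the low-ratio bins. The quotient of high over low was 1.08 there, against 1.57 in the libraries that chose the bins. The reverse choice, with a minimum of 50 fragments, gave 0.709 (0.698 to 0.719), 0.706 and 0.701 (0.689 to 0.713), a high over low of 1.01 against 2.71 in the choosing libraries. In the first direction the low-ratio bins stood apart from the middle, and the high-ratio bins did not in either.

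With all bins included, fragments under 150 bp and over 500 bp took about the same share of both sets. Without 3 bins at chromosome ends, and right beside the windows, the sets differed. Fragments under 150 bp made up 8.48% in the high-ratio bins, 8.35% in the low-ratio bins and 8.39% in all bins, and those over 500 bp made up 13.5%, 13.7% and 13.5%. Short over long fragments was 0.627 (0.613 to 0.643) in the high-ratio and 0.612 (0.595 to 0.629) in the low-ratio bins. Without the 3 bins at the ends of chromosomes 10, 12 and 16, which were set aside after their values were seen, it was 0.607 (0.593 to 0.622) and 0.550 (0.535 to 0.566), so that these intervals no longer overlapped. Right beside the windows, fragments from 120 bp up to the short window over those between the windows were 0.373 (0.361 to 0.386) in the high-ratio, 0.332 (0.318 to 0.345) in the low-ratio bins and 0.367 in all bins. Within the windows the median length hardly moved, at 204, 205 and 204 bp in the short and 387 bp in the long window for high-ratio, low-ratio and all bins.

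**Figure D3:**
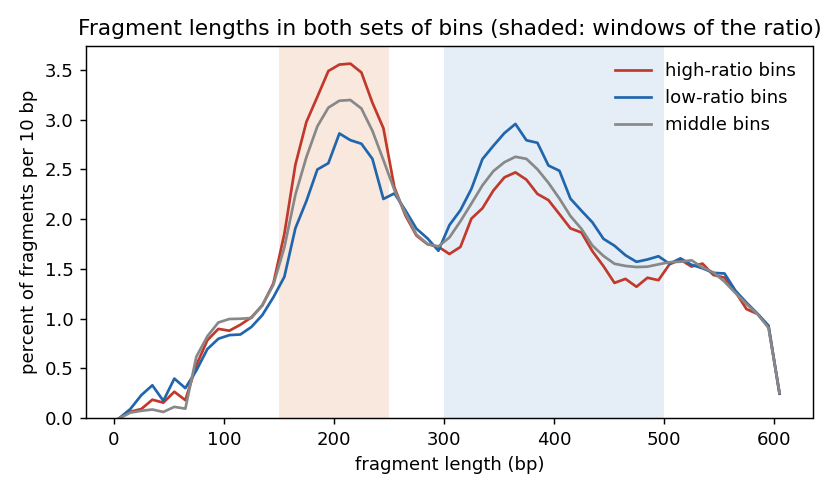
Percent of fragments per 10 bp of length (vertical axis) against fragment length in bp (horizontal axis) in the high-ratio bins (red), low-ratio bins (blue) and middle bins (grey), with the windows of the ratio shaded. The curves part inside the shaded windows, which chose the bins, and lie together above 500 bp. They also part under 150 bp. In the 10 bp from 50 bp, low-ratio, high-ratio and middle bins had 0.398%, 0.266% and 0.115%. In the 10 bp from 100 bp they had 0.835%, 0.879% and 0.997%.

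The low-ratio bins were poor in genes, and the high-ratio bins were not rich in them. Protein-coding genes numbered 1553 in the high-ratio bins (median 4 per bin), 1149 in the low-ratio bins (median 2) and 20304 in all ranked bins (median 5). Of the genes in both sets, 57.5% (55.6 to 59.3) lay in the high-ratio bins, as did 63.1% (60.8 to 65.2) of the lncRNA genes (1193 and 699). These intervals count each gene as a separate draw. Genes enter the sets by whole bins and lie in clusters, so the intervals understate the uncertainty. Bins with no protein-coding gene made up 26.5% of the low-ratio bins (63), 10.1% of the high-ratio bins (24) and 11.2% of all. Bins of 20 or more genes were rare at both ends, 8 in the high-ratio (3.36%) and 11 in the low-ratio bins (4.62%), against 11.1% of all bins. The median level of bins with 20 or more genes, from fragments outside both windows, was 1.43, against 0.953 in all bins. The part of this greater depth in their rarity at both ends was not tested. Protein-coding genes covered a median of 39.9% of the bases of a high-ratio bin, 23.5% of a low-ratio bin and 42.3% of all bins. The share of genes in the high-ratio bins turned to 49.4% with a minimum of 400 fragments per bin, to 43.7% when bins were ranked among bins of like fragment number and to 41.1% when 150 to 250 bp fragments were divided by all fragments, so that its direction rests on the ranking.

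Genes of over 200 kb were 7.66% of the genes in the high-ratio bins and 7.14% in the low-ratio bins, against 4.64% of all. The ratio was close to the same in genes and between them. It was 0.825 in and 0.828 between protein-coding genes in the high-ratio bins, 0.544 and 0.537 in the low-ratio bins and 0.685 and 0.684 over all bins. Within 500 bp of a transcription start it was 0.820 in the high-ratio bins (0.723 to 0.930) and 0.504 in the low-ratio bins (0.422 to 0.600), and beyond 5 kb it was 0.825 and 0.540. The order of the sets, fixed by their choice, held at each distance. Chromosome 18 has no start sites in the table used and is left out of this comparison.

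The level of H3K4me1, taken from fragments outside both windows, was low in the low-ratio bins. Its median was 0.967 in the high-ratio bins, 0.649 in the low-ratio bins and 0.953 in all ranked bins. Summed, it was 0.989 (0.979 to 0.998) and 0.748 (0.740 to 0.756), a high over low of 1.32 (1.30 to 1.34). In bins chosen without the library that was read, the high-ratio bins held more fragments outside both windows in 13 of 13 libraries. The quotient of these counts, not divided by bp, ran from 1.26 over a median of 1.37 to 1.49. The choices shared most of their libraries, and all libraries belong to 1 pooled sample, so these readings are not separate support. The interval of the level lay below 1 in 172 low-ratio bins (72.3%) and in 102 high-ratio bins (42.9%), against 41% of all ranked bins. It lay above 1 in 27 (11.3%) and 89 (37.4%), against 33.5% of all, so that the high-ratio bins were close to all bins. With 150 to 250 bp fragments divided by all fragments the high over low was 0.820, and that ranking divides by the very fragments that give the level. With a minimum of 400 fragments per bin the high over low was 1.17. The level was not read with bins ranked among bins of like fragment number. Across ranked bins the level went with the number of protein-coding genes (Spearman's rho 0.64) and the ratio only weakly with the level (0.23), with neighbouring bins sharing libraries and depth. Unsequenced bases were counted in a bin's length, and their part in a low level was not tested.

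**Figure D4:**
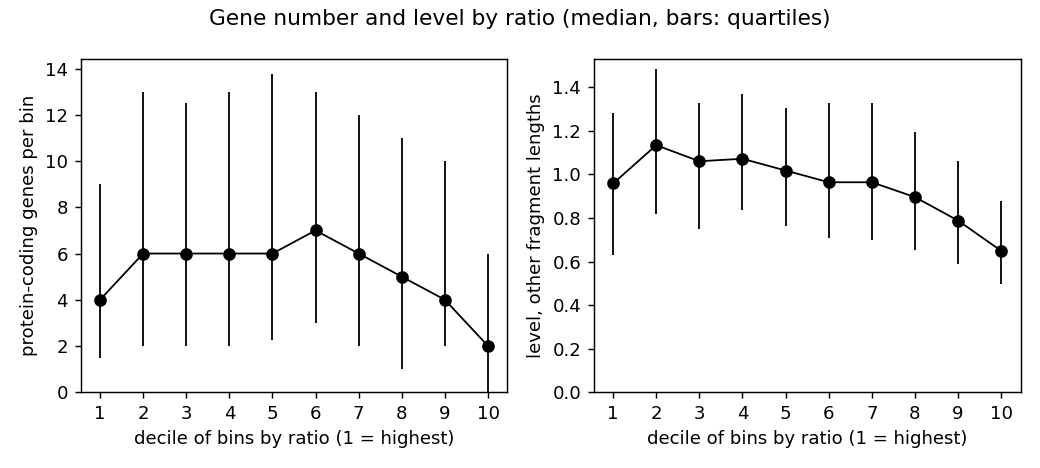
Protein-coding genes per bin (left) and level of fragments outside both windows in multiples of the autosomal mean (right) for 10 groups of 238 or 239 bins ordered by ratio, group 1 being highest. Points are medians and bars are quartiles; both fall away in group 10, where the medians are 2 genes and 0.649, and group 1 lies at 4 genes, below the middle groups.

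Groups of bins formed without the ratio pointed the same way at a small size. From the highest to the lowest quintile of bins by level, the ratio was 0.700 (0.695 to 0.705), 0.699, 0.679, 0.667 and 0.649 (0.641 to 0.657). The highest quintile exceeded the lowest in 12 of 13 libraries, from 0.974 times in 5-6 over a median of 1.08 to 1.24 times in 4-5. Bins with 0 protein-coding genes had a ratio of 0.650 (0.640 to 0.661), those with 1 to 4 genes 0.683, with 5 to 9 genes 0.690, with 10 to 19 genes 0.692 and with 20 or more 0.682 (0.675 to 0.690). Bins with 20 or more genes exceeded those with 0 in 11 of 13 libraries (0.964 to 1.21 times, median 1.03). Of the 268 bins with no gene, 63 (23.5%) were low-ratio and 24 (8.96%) high-ratio bins. The level and gene groups share bins, so they are not 2 separate results. The X chromosome, not ranked, had a ratio of 0.643 (0.630 to 0.657).

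**Figure D5:**
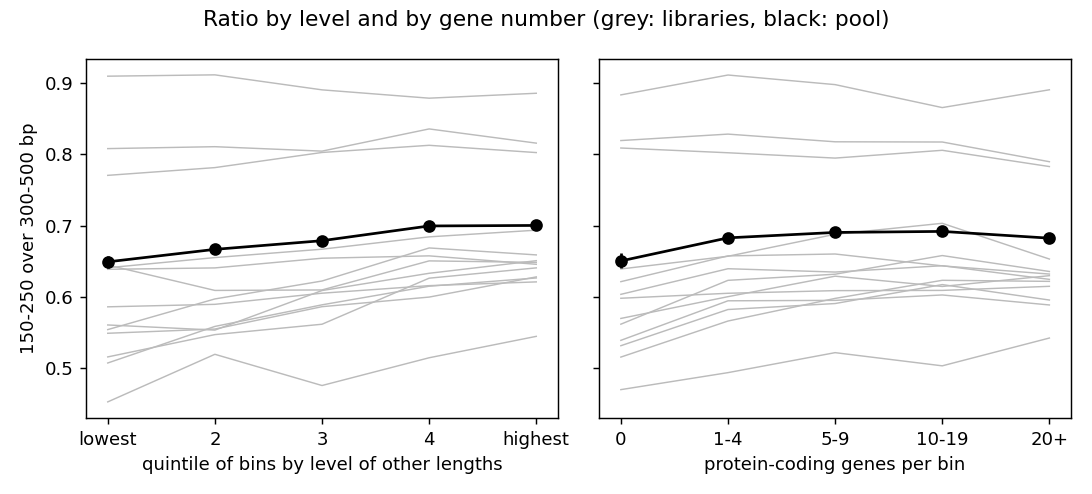
Ratio of 150 to 250 bp over 300 to 500 bp fragments (vertical axis) by quintile of bins in level (left) and by number of protein-coding genes (right), with each of 13 libraries in grey and the pool in black with 95% intervals. The pool climbs from 0.649 to 0.700 with level and from 0.650 to 0.692 with gene number, then 0.682 at 20 or more genes.

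Counted by gene, chemosensory receptors were unevenly spread over the sets. Olfactory receptor genes, which lie in large clusters and encode the odorant receptors of the nose, had 169 of 1103 members (15.3%) in the low-ratio bins and 29 (2.63%) in the high-ratio bins, against 5.66% and 7.65% of all protein-coding genes. Of the 81 bins with such a gene, 12.3% were low-ratio and 3.70% high-ratio bins, against 9.88% and 10.2% of other bins. The 169 genes sat in 10 bins and the 29 in 3, so that they count as few independent places. The bin chr7:103000001-104000000 alone held 49 of them at a ratio of 0.514 (0.384 to 0.683), chr2:89000001-90000000 held 42 at 0.571 and chr17:37000001-38000000 held 36 at 0.574. In the bin on chromosome 7 the library's own ratio was passed in 7 of 13 libraries, although it is a low-ratio bin. Without library 4-4 the share of these genes of both sets that lay in high-ratio bins was 26.4%, and without 5-10 it was 38.8%, against 14.6% with all libraries.

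Taken as a group without the ratio, the 81 bins with an olfactory receptor gene had a ratio of 0.665 (0.649 to 0.680), against 0.685 (0.682 to 0.688) in the others, which were higher in 11 of 13 libraries. Vomeronasal receptor genes divided between both ends, with 33 of 273 in the high-ratio bins, 25 of them in chr13:22000001-23000000 at 0.904, and 52 in the low-ratio bins, 17 of them in chr17:20000001-21000000 at 0.545. Their 48 bins had a ratio of 0.681 (0.659 to 0.703), and other bins were higher in 4 of 13 libraries. Of these 48 bins, 12.5% were low-ratio and 10.4% high-ratio bins, against 9.91% and 9.96% of other bins. Levels over olfactory and vomeronasal genes had medians of 0.597 and 0.591, against 1.22 over all protein-coding genes.

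The clustered protocadherins, cell-surface proteins that give neurons their identity, lie in 1 high-ratio bin. All 57 were in chr18:37000001-38000000, with 179 over 199 fragments (0.899, 0.731 to 1.11) at rank 14, and 8 of 13 libraries lay above their own ratio. Levels there were 1.43 (1.21 to 1.68) at Pcdhga1 and 1.42 (1.20 to 1.67) at Pcdhga2, which overlap, share fragments and have the most fragments of the family. The median level over the 57 genes was 0.908. Of 40 other cadherin and adhesion genes of neurons, 12 (30%) lay in the low-ratio bins and 4 (10%) in the high-ratio bins, each in a bin of its own. Of all protein-coding genes, 5.66% and 7.65% lay there. The median level over the list was 0.665, and of the lowest quintile of bins by level 22.2% were low-ratio and 11.1% high-ratio bins. Taken as a group without the ratio, the 39 bins with such a gene had a ratio of 0.657 (0.632 to 0.683), against 0.685 over all ranked bins. On chromosome 15 the low-ratio bins held Cdh9 (45 over 94, 0.479), Cdh12 (60 over 122, 0.492), Csmd3 (0.544), Cdh18 (0.546) and Cdh10 (0.551). Elsewhere they included those of Ptprd, a receptor phosphatase of synapses (62 over 129, 0.481), Cntn4 (0.505), Pcdh15, Cdh11, Cntn5 and Pcdh9. In the bin of Ptprd 12 of 13 libraries lay below their own ratio, and in that of Cdh9 11 of 13. Levels were 0.554 (0.514 to 0.597) over Ptprd and 0.596 (0.540 to 0.655) over Cntn5, and in the high-ratio bins 0.564 (0.522 to 0.609) over Lrp1b and 0.947 (0.878 to 1.02) over Tenm3. Low level over these long genes thus occurred at both ends.

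Genes of the zygote lay in few of the member bins. Of 33 zygotic genome activation genes, 7 (21.2%) lay in the low-ratio bins, in 2 bins, and 0 in the high-ratio bins, against 5.66% and 7.65% of all protein-coding genes. They were 5 Obox homeobox genes in chr7:15000001-16000000 (98 over 188, 0.521, with 12 of 13 libraries below their own ratio) and Usp17lc and Usp17ld in the olfactory bin of chromosome 7. Levels were 0.914 (0.438 to 1.68) at Obox3, 1.02 (0.442 to 2.02) at Obox5 and 0.934 (0.343 to 2.03) at Obox6, each with an interval that includes 1. Of 35 oocyte and maternal-effect genes, 4 (11.4%) lay in the low-ratio bins (Nlrp2, Nlrp4f, Mos and Zfp57, which guards imprints) and 1 (2.86%) in the high-ratio bins, Dnmt3l, the cofactor of maternal DNA methylation. Levels were 0.959 (0.652 to 1.36) at Nlrp2, 1.38 (0.899 to 2.02) at Nlrp4f and 1.47 (0.757 to 2.56) at Zfp57, each with an interval that includes 1, and 1.96 (1.31 to 2.81) at Dnmt3l. With 0 to 5 bins a list, these counts describe places and not the lists.

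The remaining lists had few members in either set. For comparison, 7.65% of all protein-coding genes lay in the high-ratio bins and 5.66% in the low-ratio bins. Of 40 Polycomb-target regulators of development, 4 (10%) lay in the high-ratio bins, namely Pax7 (bin ratio 0.824), En1 (0.814), Dlx5 (0.812) and Gsc (0.788). Another 2 (5%), Dlx1 (0.532) and Nkx2-2 (0.561), lay in the low-ratio bins. Levels in the high-ratio bins were 2.40 (2.02 to 2.84) at Pax7, 2.20 (1.17 to 3.77) at En1 and 1.27 (0.411 to 2.95) at Gsc. Those in the low-ratio bins were 1.63 (1.02 to 2.47) at Nkx2-2 and 0.655 (0.178 to 1.68) at Dlx1, and the median over the list was 1.04. Housekeeping genes were 2 and 2 of 36, Polr2b and Tubb5 above and Hspa8 and Tfrc below. Ribosomal protein genes were 4 and 4 of 80, solute carriers 21 and 11 of 362, cytochrome P450 genes 4 and 2 of 99, zinc finger genes named Zfp 17 and 13 of 381 and defensins 1 and 0 of 71, in the high-ratio and low-ratio bins. None of 112 keratin genes and none of 39 Hox genes lay in either set. The 12 keratin bins ranged from 0.642 to 0.776 and the 5 Hox bins from 0.689 to 0.776. Markers of other cells had at most 2 members of a list in either set, too few to compare with the shares of all genes. Of 25 cumulus and granulosa markers, Runx2 and Ptx3 (8%) were in the high-ratio bins and Ptgs2 (4%) in the low-ratio bins. Of 28 spermatid genes, Spata18 and Smcp (7.14%) were in the high-ratio bins and 0 in the low-ratio bins. Of 20 blood markers, the globin genes Hbb-bs and Hbb-bt (10%) were in 1 low-ratio bin and 0 in the high-ratio bins.

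Promoters of genes in the low-ratio bins held less CG, and without the receptor families the share of promoters with few CG was close to that of the high-ratio bins. Off chromosome 18, entries were found for 84.1% of the genes in the high-ratio and 81.4% in the low-ratio bins. The median GC content was 56.5% in the high-ratio, 52.3% in the low-ratio bins and 57.0% in all bins, with 14, 8 and 14 CG per promoter. Promoters of under 3 CG made up 18.6%, 30.0% and 17.5%. Without the olfactory and vomeronasal receptor genes these shares were 15.3%, 14.6% and 12.1%. The median GC content was then 57.0%, 56.3% and 58.0%, with 15, 13 and 16 CG per promoter, still lowest in the low-ratio bins. Of the promoters printed above, that of Vmn2r85, with 0 CG, belongs to the receptor families.

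Members were scattered along the chromosomes. Of 2357 pairs of neighbouring ranked bins, 21 were both high-ratio, 32 both low-ratio and 44 one of each, and the ratio of a bin and its neighbour went together only weakly (Spearman's rho 0.05). The longest runs were 3 high-ratio bins on chromosome 4 and 4 low-ratio bins on chromosome 3. Chromosome 6 had 23 of its bins among the high-ratio bins (15.6%) and 12 in the low-ratio bins. Chromosome 15 had 3 (3%) and 16 (16%), and chromosome 2 had 5 (2.86%) and 18.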

How the data were processed

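H3K4me1 CUT&Tag fragments of single zygotes were analysed. The deposited table lists 1 fragment per line with its library, and its last column is a count of 1 in each line. The build is mm10, per the submitters' processing notes. Aligner, duplicate removal, filters and any Tn5 offset were not given in the sources used here. Lines were counted here in 1 Mb bins by fragment midpoint, for libraries of 5000 or more fragments, and bins of 200 or more were ranked by 150 to 250 over 300 to 500 bp. Genes were assigned by midpoint from RefSeq for GRCm38.p6, and gene levels include 2.5 kb on each side. Intervals are exact 95% intervals from scipy 1.17.1, and the script was tested on simulated data. Bins named are the 5 highest and 5 lowest and those beside each threshold. Genes named are up to 3 per extreme bin, and per list and set of bins, with the most fragments; further list members and receptor-cluster bins were named after their values were seen. A further result is not reported here. The members and lists were chosen with earlier results of these data known. Other bin sizes, minimums, windows, libraries and rankings were tried. Added after seeing the data were ranking among bins of like fragment number, ranking corrected for library mix, and readings of bins in libraries that did not choose them.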

Additional observations from a re-analysis of the deposited data

How the results depend on the processing

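The pool is 1 sample, so counting depth limits single bins, and alternatives were judged by whether values left their interval. No paired analysis was possible because the table pools both batches and no result comes from a test. The share of protein-coding genes of both sets in high-ratio bins, 57.5%, turned to 49.4% with 400 or more fragments, 41.1% with 150 to 250 bp over all fragments and 43.7% among bins of like fragment number. It was 55.1% in 500 kb bins, 62.4% with narrower windows (150 to 220 over 320 to 450 bp), 62.5% with libraries weighted equally, 51.2% in libraries named 5, 62.9% with 119 bins a set, 59.8% with lncRNA genes, 59.7% corrected for library mix and 56.1% to 61.2% without single libraries. The level of high-ratio over low-ratio bins, 1.32, turned to 0.820 with bins ranked by 150 to 250 bp over all fragments. Counted from all fragments, with the ranking unchanged, it was 1.33. It was 1.17 with 400 or more fragments, 1.44 with narrower windows, 1.43 with equal weights, 1.35 without 10 kb bins above 10 times the mean, 1.23 in libraries named 5, 1.06 in those named 4 (6 bins a set), 1.40 with 119 bins a set and 1.27 to 1.46 without single libraries. Short over long fragments, high over low, 1.03, was 1.06 in 500 kb bins, 0.584 with bins ranked by 150 to 250 bp over all fragments, 1.13 without the bins above 10 times the mean, 1.38 in libraries named 4, 0.954 with 119 bins a set, 0.931 with under 120 over above 600 bp, 0.956 among bins of like fragment number and 1.00 to 1.12 without single libraries. The share of olfactory receptor genes of both sets in high-ratio bins, 14.6%, was 36.2% in 500 kb bins, 38.4% with equal weights, 20.7% in libraries named 5, 28.0% with 119 bins a set, 25.9% corrected for library mix and 10.6% to 38.8% without single libraries. Libraries named 4 alone gave no value for it, since neither set held such a gene. Bins with an interval off the autosomal ratio, 152, were 272 in 500 kb bins, 2 in libraries named 4 (61 bins ranked) and 136 to 163 without single libraries. The ratio of high-ratio over low-ratio bins read in libraries that did not choose the bins, 1.08, was 1.01 with 400 or more fragments, 1.02 with bins ranked by 150 to 250 bp over all fragments, 1.01 when chosen in libraries named 4 and 1.04 to 1.12 without single libraries. The cause of these changes was not tested.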
